A study of Equus caballus with 20 samples.

Results

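Vesicle miRNAs of mare follicles about to ovulate were compared with those of small follicles in which no dominant follicle had yet been selected. A miRNA was included when it was above 0 in at least 4 of the 8 libraries of these stages, which kept 216 of the 686 miRNA names in the table. Another 72 names were above 0 in 1 to 3 of the 8 libraries, with 244 of the 573761 reads, and were not tested. The miRNAs just inside the rule, 18 names above 0 in exactly 4 libraries, had means of 6.52 to 66.1 scaled reads, and the 18 names just outside it, above 0 in exactly 3 libraries, had means of 4.93 to 30.2. Of the 216 members, 130 were above 0 in all 8 libraries. A single member, miR-758, was kept by the impending ovulation libraries alone.

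MiRNAs are short RNAs that guide Argonaute proteins to messenger RNAs and lower the output of those messages, mostly through the seed at the 5′ end of the miRNA. Follicular fluid surrounds the oocyte and the granulosa cells, and extracellular vesicles, small membrane-bound particles, carry miRNAs through it between granulosa, theca, cumulus and blood-derived cells. In mares a follicular wave yields a single dominant follicle at deviation, and the surge of luteinizing hormone (LH) that precedes ovulation changes granulosa cells from growth to luteinization.

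Both groups came from mares of 1 breed, 8 to 14 years old, with a normal reproductive tract. All follicles of at least 6 mm were ablated on days 10 to 11 of the cycle to start a new wave, so every follicle here grew after ablation. Predeviation follicles measured 18 to 20 mm, and impending ovulation follicles showed signs that ovulation was close, with no diameter in the labels. Fluid was aspirated from living mares, vesicles were pelleted by ultracentrifugation and small RNA was sequenced, with 4 libraries in each group. The study names 19 mares for 20 libraries of 5 stages, and the libraries are not tied to mares, so p-values measure only the spread between these samples. No treatment or genotype separated the groups.

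The deposited values are reads multiplied by a factor for each library and are called scaled reads. Whole reads recovered from them ranged from 41360 to 110130 per library at predeviation and from 29862 to 88126 at impending ovulation. The shallowest library was impending ovulation 2, where 1 read stood for 28.5 scaled reads. The factors did not bring the libraries to one total. Predeviation 4 summed to 1778185 scaled reads, against 1078319 to 1136927 in the other predeviation libraries and 848039 to 1015849 at impending ovulation. Every pair of libraries of a group differed beyond counting noise, so none was treated as a repeat of another. At an equal depth of 29862 reads, 187 ± 9.06 miRNAs were above 0 at predeviation and 183 ± 12.5 at impending ovulation (SD, n = 4; exact two-sided permutation p = 0.657).

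In these libraries, vesicles of follicles about to ovulate held more miR-192, miR-215, miR-22 and miR-92a, and more miR-483 of the IGF2 gene. They also held more miR-323-3p and miR-485-3p of an imprinted locus, the latter on 2 against 18 reads. MiR-148a, miR-99a, miR-146b-5p and miR-23b were called lower. Of these, only miR-23b was still called when every library was brought to the same total. With quantile normalization the change of miR-148a turned positive (0.22). A total of 17 miRNAs, 7.87% of the 216, passed an adjusted p of 0.05 in limma's moderated test on log2(value + 1). Of these, 13 were higher at impending ovulation (6.02%) and 4 were lower (1.85%). Before adjustment, 46 miRNAs had a p under 0.05. The last miRNA inside the threshold was miR-27a, at an adjusted p of 0.0497, and the first outside it was miR-204b, at 0.0555. Apart from miR-758, which met the inclusion rule through 1 stage alone, 12 of the other 215 members were called higher. This is a recount of the same fit, since the adjustment was not redone without miR-758. By rank of the same p-values, miR-27a (limma adjusted p = 0.0497) and miR-148a (0.0478) would not remain called without miR-758. The groups of 4 libraries did not overlap at all for 15 miRNAs that were higher at impending ovulation (6.94%) and 7 that were lower (3.24%). Apart from miR-758, whose separation followed from how it met the inclusion rule, 14 of the other 215 members were higher without overlap. The count of calls rested on few libraries: it was 5 without predeviation 2, 9 without impending ovulation 1 and 9 without impending ovulation 2. With only these 8 libraries in the fit, limma called 6 miRNAs (miR-92a, miR-22, miR-323-3p, miR-206 and miR-758 higher, miR-146b-5p lower), and edgeR on recovered reads called 0, with 34 at an unadjusted p under 0.05. The place of miR-758 among these 6 adds no support, because of how it met the inclusion rule.

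**Figure D1:**
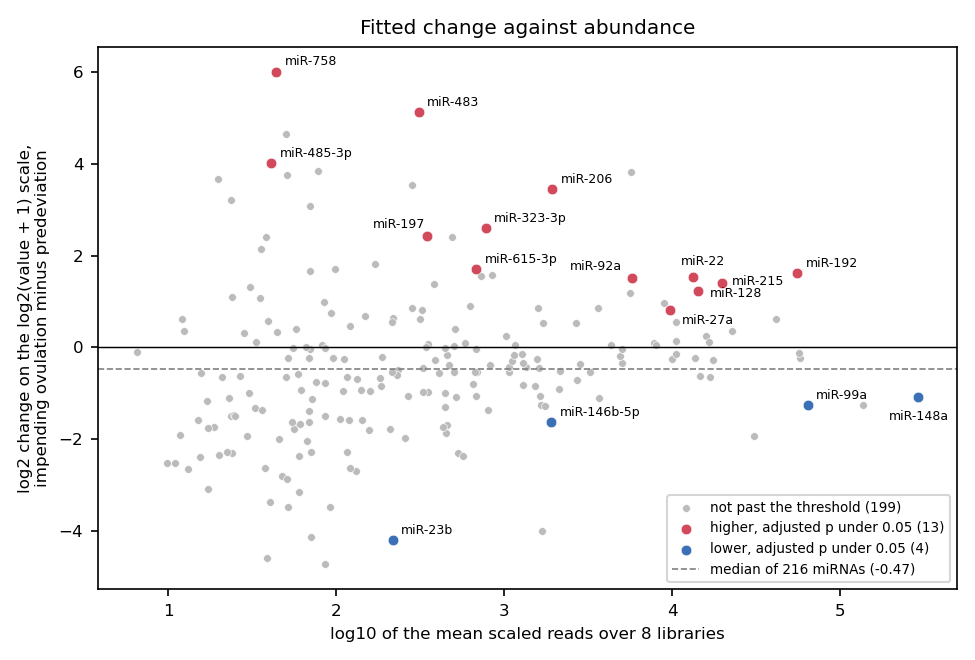
Fitted log2 change (impending ovulation minus predeviation, vertical axis) against the log10 of the mean scaled reads over the 8 libraries (horizontal axis) for the 216 miRNAs. Red points are the 13 miRNAs that passed the threshold with a higher level, blue points the 4 with a lower level, and the dashed line is the median of all 216 at -0.47. Among the 72 most abundant members, 9 were called higher and 3 lower. The counts were 2 and 1 for the 72 in the middle, and 2 and 0 for the 72 least abundant. The spread of the grey points widens toward scarce miRNAs.

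The bulk of the members sat slightly below 0. The fitted change was negative for 142 and positive for 74 members, and its median was -0.47 on the log2 scale. By abundance, the median was -0.20 over the 72 members with the highest means, -0.55 over the 72 in the middle and -1.24 over the 72 with the lowest means. The fitted changes depended on the scaling. Over the 216 members, the median of the shift in fitted change was 0.20 upward with quantile normalization and 0.087 with rescaling to a median of ratios. It was 0.44 upward when every library was brought to the same total. With equal totals 20 miRNAs were called higher and 1 lower, and with the median of ratios 14 higher and 2 lower, instead of 13 and 4. In vesicle RNA from a whole fluid sample, a change in which cells release vesicles and a change in how much of a miRNA each cell loads cannot be told apart.

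The clearest group by level was the pair miR-192 and miR-215, which are abundant in liver, gut and kidney and are induced by p53 in human cells. MiR-192 stood at 20579.8, 14041, 32382 and 52559 scaled reads in predeviation libraries 1 to 4 and at 84974, 86126, 74958 and 78863 in impending ovulation libraries 1 to 4. The groups did not overlap, the impending ovulation values lay close together, and the highest predeviation value was that of the library with the largest sum. The fitted rise was 1.61 ± 0.31 on the log2 scale, or 3.06-fold (SE; limma adjusted p = 0.00341). By rank within each library, miR-192 went from place 6 to 14 at predeviation to place 2 or 3 at impending ovulation. MiR-215 stood at 10717, 3926, 14212 and 19189 scaled reads at predeviation and at 26888, 27929.8, 27957 and 27187 at impending ovulation. Again all 4 late libraries lay above all 4 early ones, and they spanned a narrow range. Its rise was 1.41 ± 0.35, or 2.66-fold (limma adjusted p = 0.0170). That call was lost without predeviation 2 (0.0528) and with quantile normalization (0.0564).

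The other members of the liver, gut and kidney list did not pass. MiR-194, whose hairpins share primary transcripts with those of miR-192 and miR-215 in human and mouse, stood at 545, 333, 632 and 685 scaled reads at predeviation and at 268, 28.5, 419 and 627 at impending ovulation. The ranges overlapped, with the lowest value, a single read, in the shallowest library, and the fitted change was -1.31 ± 0.70 (limma adjusted p = 0.295). MiR-122, the main liver miRNA, stood at 4025, 2888, 3848 and 16333 at predeviation and at 5219.5, 16501, 10462 and 11799 at impending ovulation. One early library, predeviation 4, was as high as the late ones, and the change was 0.97 ± 0.48 (adjusted p = 0.252). The 4 members of the liver, gut and kidney list thus had 2 calls, both higher, beside 6.02% called higher over all members, and a median change of 1.19 beside -0.47.

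MiR-483 lies in an intron of the IGF2 gene, which encodes insulin-like growth factor 2, in human and mouse. It stood at 103, 9.79, 0 and 57.1 scaled reads at predeviation, 11 reads in all, and at 582, 627, 711 and 382 at impending ovulation, 153 reads. All 4 late libraries were several times above the highest early one. After adjustment for depth the reads differed 13.1-fold (counting interval at 95%, 7.11 to 26.8), and limma gave 5.14 ± 1.01 on the log2 scale (adjusted p = 0.00341). The size was uncertain because of the low early values. The log2 change was 6.04, 3.80 and 5.76 without predeviation 1, 3 and 4, 4.03 at a pseudocount of 10 and 3.66 to 3.77 with the count models edgeR and DESeq2 on recovered reads.

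The imprinted DLK1-DIO3 locus holds a large miRNA cluster that is expressed from the maternal chromosome. Of its 28 members, 3 were called higher and 0 lower, beside 6.02% and 1.85% of all 216 members. The 3 include miR-758, which was kept by the impending ovulation libraries alone and adds no support to this share. MiR-323-3p stood at 442, 97.9, 110.0 and 343 scaled reads at predeviation and at 1834, 798, 939.5 and 1625 at impending ovulation. The groups did not overlap, and the rise was 2.60 ± 0.57 (limma adjusted p = 0.00692). MiR-758 was at 0 in all 4 early libraries and at 149, 28.5, 25.4 and 149 scaled reads in the late ones. These are 0 against 27 reads, so miR-758 was at least 8.47-fold higher when the early group is set to its floor of 3 reads in all. It met the inclusion rule through the late libraries alone, so its place among the 17 called miRNAs is no support and its p is not given. MiR-485-3p stood at 14.7, 0, 0 and 19.0 at predeviation and at 89.5, 114, 38.1 and 53.1 at impending ovulation. The early group held 2 reads and the late group 18, which after depth adjustment is an 8.47-fold difference (2.03 to 75.3; limma adjusted p = 0.0227), and the late libraries all lay above the early ones.

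The call of miR-485-3p rested on few reads. It was lost without predeviation 2 (0.0834), predeviation 3 (0.0708), impending ovulation 1 (0.0565) or impending ovulation 2 (0.0779). Its fitted log2 change of 4.02 was 3.33 without predeviation 2 or 3, 4.66 without predeviation 1 and 4.77 without predeviation 4, and edgeR did not call it (0.0716 with TMM). The other arm of its hairpin, miR-485-5p, stood at 914, 411, 329.9 and 2379.5 at predeviation and at 388, 342, 317 and 361 at impending ovulation. The 2 arms thus had fitted changes of opposite sign, although only the 3p arm passed (-1.07 ± 0.58 for the 5p arm, adjusted p = 0.297).

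The locus showed no common direction. Of its 28 members, 14 had a positive and 14 a negative fitted change, with a median of 0.00. MiR-409-3p, the most abundant member, stood at 7194, 2144, 3436 and 22996 at predeviation and at 8724, 7837, 5878 and 3876 at impending ovulation, with a change of 0.088 ± 0.53 (limma adjusted p = 0.952), whose sign turned with edgeR and DESeq2. MiR-370 stood at 206, 157, 137 and 362 against 522, 399, 876 and 414, without overlap between the groups, yet did not pass (1.38 ± 0.51, adjusted p = 0.111).

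MiR-92a and miR-22 were called among the abundant miRNAs with links to growth. MiR-92a, a member of the growth-promoting miR-17-92 cluster, stood at 2447, 2252, 3106 and 4340.3 scaled reads at predeviation and at 10469, 9119.9, 8252 and 6308 at impending ovulation. The groups did not overlap, and the rise of 1.52 ± 0.25 had the lowest adjusted p of all 216 (limma, 0.00101). MiR-22, a broadly expressed miRNA, stood at 7784, 5522, 7175 and 6872 against 17388, 25194, 17406 and 19031. The early libraries lay within a narrow range, and every late library was above them, with a rise of 1.52 ± 0.31 (limma adjusted p = 0.00358). The calls of miR-92a, miR-22, miR-192, miR-483 and miR-323-3p were kept when any of the 20 libraries was left out.

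No other member of the miR-17-92 cluster and its paralogs was called. Of 10 members, 1 was called higher, a share near the 6.02% over all members, 4 had a positive and 6 a negative fitted change, and the median was -0.078. MiR-19b, a member of the same primary transcript, stood at 295, 186, 247 and 171 at predeviation and at 14.9, 57.0, 25.4 and 53.1 at impending ovulation. All late libraries lay below the early ones, but the change did not pass (-2.70 ± 1.15, limma adjusted p = 0.178). MiR-25, from the paralogous miR-106b-25 cluster, stood at 3966, 2742, 4151 and 10908 against 5712, 4759, 4279 and 3738 (-0.045 ± 0.40, adjusted p = 0.965), with a sign that turned under rescaling to equal totals or to a median of ratios. MiR-20a stood at 324, 539, 302 and 362 against 328, 370.5, 1447 and 1359, where impending ovulation 3 and 4 alone lay above the early range. The change in miR-20a was 0.91 ± 0.89 (adjusted p = 0.584).

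**Figure D2:**
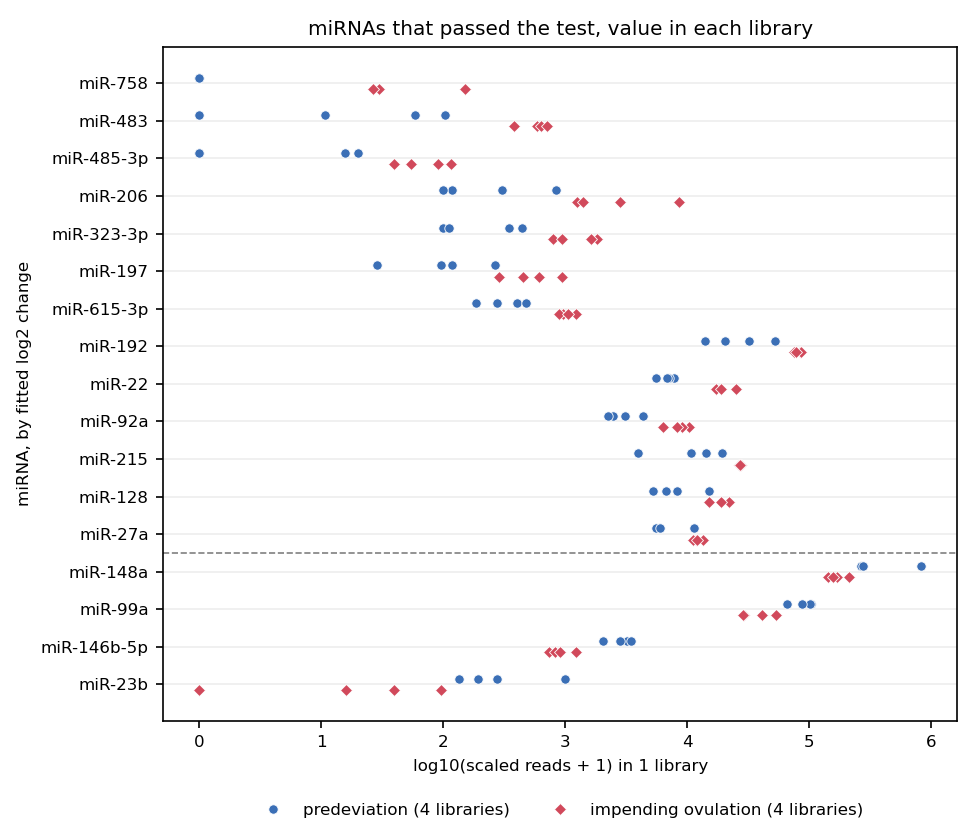
Level of the 17 called miRNAs (rows, ordered by fitted change) as log10(scaled reads + 1) in each library, with blue circles for the 4 predeviation and red diamonds for the 4 impending ovulation libraries. The dashed line separates the 13 higher from the 4 lower miRNAs. The groups are apart for 15 of the miRNAs and overlap for miR-128 and miR-27a. MiR-758 is among the 15 and met the inclusion rule through the impending ovulation libraries alone.

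MiR-128, a miRNA enriched in brain, stood at 8241, 5297, 6679.7 and 15039 scaled reads at predeviation and at 21952, 22030.3, 18816 and 15006 at impending ovulation. Predeviation 4 and impending ovulation 4 met at the same level, so that 3 of 4 late libraries lay above all early ones. The rise was 1.24 ± 0.30 (limma adjusted p = 0.0143) and was lost without predeviation 2 (0.0528). MiR-615-3p, from an intron of HOXC5, stood at 398, 186, 275 and 476 against 954, 1225, 889 and 1062, with no overlap. It rose by 1.70 ± 0.47 (limma adjusted p = 0.0236) and was lost without predeviation 2 (0.0895), predeviation 3 (0.0579), impending ovulation 1 (0.0528) or impending ovulation 2 (0.0793). Of the 5 miRNAs of HOX loci, 1 was called higher, beside 6.02% over all members. The median of the list was 0.32 beside -0.47, and the other 4 were not called. The most abundant of them, miR-10b and miR-10a, had changes of -0.23 ± 0.39 and -0.12 ± 0.41, both of which turned positive with equal totals.

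MiR-206, known from skeletal muscle, had the largest fitted rise of the called miRNAs among the 72 most abundant members, which had means of at least 667 scaled reads. Its values were 118, 97.9, 302 and 838 at predeviation and 2819, 8664, 1244 and 1402 at impending ovulation. The groups were apart, but the late values were uneven, with the highest in the shallowest library, and the rise of 3.45 ± 0.84 (limma adjusted p = 0.0143) was lost without predeviation 2 (0.0528) or impending ovulation 2 (0.0732). It was 2.86 without impending ovulation 2 and 4.06 without predeviation 4. No other striated muscle marker was called: miR-1 stood at 2786, 1322, 495 and 7843 against 447, 1881, 10639 and 350.5, and miR-133a at 88.5, 58.7, 27.5 and 209 against 44.7, 114, 12.7 and 53.1. Both spanned wide and overlapping ranges, with limma adjusted p of 0.821 and 0.704. Of the 4 striated muscle markers, 1 was thus called higher, beside 6.02% over all members. Their summed level ranged from 935 to 9118 at predeviation and from 1901 to 11909 at impending ovulation.

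MiR-197 stood at 265, 117, 27.5 and 95.2 scaled reads at predeviation and at 447, 285, 939.5 and 605 at impending ovulation. The groups lay close to each other without overlap, and the rise was 2.43 ± 0.66 (limma adjusted p = 0.0229). The call was lost without predeviation 2 (0.0528), predeviation 3 (0.0831), impending ovulation 1 (0.0513) or impending ovulation 3 (0.0713), and the log2 change was 1.84 without predeviation 3.

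The miR-23, miR-27 and miR-24 clusters come in 2 genomic copies, a (miR-23a, miR-27a) and b (miR-23b, miR-27b), and they held calls in both directions. Of 5 members, 1 was called higher and 1 lower, beside 6.02% and 1.85% of all members. MiR-27a stood at 5853, 5522, 11380 and 5958 scaled reads at predeviation and at 11796, 13423, 11261 and 12117 at impending ovulation. Predeviation 1, 2 and 4 lay close together, and predeviation 3 fell among the late values, with a rise of 0.83 ± 0.26 (limma adjusted p = 0.0497). This call was the least secure of the 17. It was lost without any one of 17 of the 20 libraries (adjusted p 0.0543 to 0.154), among them impending ovulation 2 (0.154), predeviation 2 (0.144) and predeviation 1 (0.121), and kept without predeviation 3, deviation 3 or preovulatory 1. Without predeviation 3 the change was 1.07 (0.00987).

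MiR-23b fell, from 192, 989, 275 and 133 scaled reads at predeviation to 14.9, 0, 38.1 and 95.6 at impending ovulation. The early group held 131 reads and the late group 13, a 10.7-fold difference after depth adjustment (6.05 to 20.6 at 95%), and no late library reached the early range. Limma gave -4.21 ± 1.12 (adjusted p = 0.0227). The call was lost without predeviation 2 (0.0895), impending ovulation 1 (0.0513) or impending ovulation 2 (0.0793), and the change was -3.62 without predeviation 2, -2.89 without impending ovulation 2 and -5.09 without impending ovulation 4. MiR-27b, its neighbour in the b cluster, stood at 17351, 14638, 22651 and 16162 against 11050.5, 9433, 11668 and 13285. Every late library was below the early range, but the change of -0.63 ± 0.24 did not pass (limma adjusted p = 0.113). MiR-24, made by both clusters, was nearly level at 15494, 15421, 18912 and 13801 against 19118, 20349, 15096 and 14273 (0.11 ± 0.24, adjusted p = 0.834), with a sign that turned with quantile normalization. Reads of miR-23a and miR-23b, or of miR-27a and miR-27b, differ little in sequence, and the sources used here do not say how the counting assigned them.

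The most abundant miRNA of the table, miR-148a, an abundant miRNA of epithelia, liver and milk vesicles that represses the DNA methyltransferase DNMT1, was lower at impending ovulation. It stood at 269572, 264904, 276040.0 and 828709 scaled reads at predeviation and at 168561, 143183, 211288 and 156324 at impending ovulation. The groups did not overlap, the first 3 early libraries were nearly equal, and predeviation 4 was far above them. The change was -1.09 ± 0.33 (limma adjusted p = 0.0478). As a share of all values, miR-148a took 24.3 to 46.6% at predeviation and 16.7 to 20.8% at impending ovulation. This call depended on the scaling: with quantile normalization the change turned to 0.22 (adjusted p = 0.720), and with equal totals the adjusted p was 0.187. It was also lost without any one of 15 of the 20 libraries (0.0504 to 0.154), the highest without impending ovulation 2 (0.154), impending ovulation 1 (0.108) and predeviation 4 (0.0826, with a change of -0.69), and was kept without predeviation 1 or 3, deviation 2 or 3 or preovulatory 1. Its relative miR-148b-3p stood at 1283, 2154, 1649 and 2361 against 1148, 1054, 1638 and 1539.9 (-0.45 ± 0.31, adjusted p = 0.434), and the scarce miR-148b-5p did not pass either (-0.55 ± 1.84, adjusted p = 0.896).

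MiR-99a, which lowers mTOR in human cells, followed miR-148a and miR-21 in abundance. It stood at 65853, 103103, 102202 and 87510.1 scaled reads at predeviation and at 53478, 29127, 41186 and 28684 at impending ovulation. The highest late library remained under the lowest early one, and the change was -1.26 ± 0.38 (limma adjusted p = 0.0424). The call was lost without any one of 11 of the 20 libraries (0.0514 to 0.154), with impending ovulation 2 (0.154), predeviation 2 (0.0956), predeviation 3 (0.0953), impending ovulation 4 (0.0864) and impending ovulation 3 (0.0586) among them, beside deviation 1, the 4 postdeviation libraries and preovulatory 4 (0.0514 to 0.0553). It was also lost with quantile normalization (0.132) and equal totals (0.274). MiR-99b, of the same seed family, was at 1887, 2507, 2886 and 1770.4 against 626, 570.0, 1727 and 1179, again without overlap, but did not pass (-1.26 ± 0.44, adjusted p = 0.0805). MiR-100, which differs from miR-99a by little, stood at 11086, 9586, 4178 and 70815 against 8724, 14249.9, 49172 and 14114, with the highest values in predeviation 4 and impending ovulation 3 (0.36 ± 0.75, adjusted p = 0.820), and its sign turned with edgeR and DESeq2. MiR-125a-5p had a change of 0.52 ± 0.53 (adjusted p = 0.594). Over the 6 members of the miR-99, miR-100 and miR-125 group the median was -0.76, beside -0.47 over all members. MiR-99a was the only call among the 6, beside 1.85% called lower over all members.

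MiR-146b-5p, part of a negative feedback on NF-kB signalling in immune cells, was lower at impending ovulation. It stood at 3228, 3447, 2062 and 2798 scaled reads at predeviation and at 731, 826, 914 and 1232 at impending ovulation. Both groups were tight and well apart, and the change was -1.64 ± 0.45 (limma adjusted p = 0.0236). The call was lost without predeviation 1 (0.0610), predeviation 2 (0.0834) or impending ovulation 1, 2 or 3 (0.0786, 0.0788 and 0.0512), and with equal totals (0.105). Its other arm, miR-146b-3p, had 5 reads against 1 and did not pass (adjusted p = 0.444). MiR-146a, from another chromosome in human and with the same seed, stood at 4983, 5591, 7339 and 4569 against 5831, 4075, 4380.1 and 3409 (-0.35 ± 0.29, adjusted p = 0.514), a sign that turned with equal totals.

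MiR-146b-5p was the only leukocyte marker called. Of 10 leukocyte markers, 1 was called lower, beside 1.85% of all members. The fitted change was negative for 9 of them, beside 142 of all 216, and their median was -0.65 beside -0.47. Their summed level ranged from 8509 to 11023 scaled reads at predeviation and from 5894 to 9753 at impending ovulation. MiR-155, the exception in sign, stood at 457, 470.0, 275 and 247 against 2237, 1026, 1714 and 297, with 3 of 4 late libraries above the early range (1.58 ± 0.70, limma adjusted p = 0.184). MiR-342-3p stood at 206, 539, 522 and 457 against 656, 85.5, 165 and 191 (-0.97 ± 0.59, adjusted p = 0.371). The part of blood cells in the change of miR-146b-5p was not tested.

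Markers of granulosa cells and of the LH response held no call. MiR-21, which LH raises in mouse granulosa cells, stood at 216708, 194377, 321671 and 46810.4 scaled reads at predeviation and at 42636, 39529, 76684 and 149687 at impending ovulation. Predeviation 4 was as low as the late libraries, and impending ovulation 4 was the highest of its group. The change was -1.26 ± 0.74 (limma adjusted p = 0.356). MiR-132, another LH-responsive miRNA of mouse granulosa cells, stood at 29.5, 88.1, 110.0 and 38.1 against 283, 0, 63.5 and 74.3 (-0.77 ± 1.70, adjusted p = 0.831), and its sign turned with quantile normalization, edgeR and DESeq2. MiR-378, which lowers aromatase in pig granulosa cells, was nearly level at 10467, 8734, 11408 and 12869 against 9022, 7752, 9966 and 9707 (-0.25 ± 0.28, adjusted p = 0.640), turning positive with equal totals. MiR-224, which targets SMAD4 in mouse granulosa cells, was scarce at 88.5, 49.0, 55.0 and 57.1 against 14.9, 0, 114 and 169.9 (-1.38 ± 1.54, adjusted p = 0.638), and turned positive with edgeR and DESeq2. Of the granulosa and gonad list, miR-202 and miR-383 were not among the members.

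Smooth muscle markers, which are also found in the theca around the follicle, missed the threshold narrowly. MiR-143 stood at 33317, 92381, 11985 and 40890.1 scaled reads at predeviation and at 5055, 6925, 4189.7 and 49414 at impending ovulation. MiR-145, from the same transcript, stood at 1017, 1009, 247 and 704 against 74.6, 57.0, 63.5 and 1094. In both, impending ovulation 1, 2 and 3 lay under every early library, whereas impending ovulation 4 lay within the early range for miR-143 and above it for miR-145. Their changes were -1.93 ± 0.66 and -2.30 ± 0.79 (limma adjusted p = 0.0776 for each), and the summed level of the pair ranged from 12232 to 93389.7 at predeviation and from 4253 to 50508 at impending ovulation.

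The remaining lists of blood vessel, blood and surface epithelium markers held no call. Of 4 endothelium and platelet markers none passed and all had a negative change, beside 142 of all 216 members. Their median was -0.97, beside -0.47 over all members. MiR-126-3p, the defining endothelial miRNA, stood at 2536, 10976, 3546 and 3750.2 against 1238, 2365, 3072 and 1943, where impending ovulation 3 alone reached the early range (-1.10 ± 0.47, limma adjusted p = 0.184), and miR-221 had a change of -0.85 ± 0.46 (0.304). The scarce other arm, miR-126-5p, named after its values were seen, stood at 73.7, 88.1, 27.5 and 76.1 against 0, 0, 0 and 42.5, with impending ovulation 4 within the early range (-4.59, 95% interval -7.70 to -1.48; adjusted p = 0.0664). The 3 red blood cell markers held no call, with miR-486-5p at 24811, 6658, 13359 and 16409 against 17016, 15903, 19857 and 13381 (0.25 ± 0.52, adjusted p = 0.821; negative with quantile normalization) and miR-451 at 575, 5464, 852 and 514 against 209, 1054, 1143 and 563 (-0.82 ± 0.80, adjusted p = 0.584). MiR-205, a marker of stratified epithelium, stood at 206, 1929, 357 and 381 against 432, 199, 76.2 and 74.3 (-1.69 ± 0.99, adjusted p = 0.356), and miR-31 had a change of -0.54 ± 1.59 (0.880).

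Neural and endocrine markers held 1 call, miR-128, among 5 members, beside 6.02% called higher over all members, and had a median change of 1.24 beside -0.47. MiR-9a stood at 516, 1498, 27.5 and 1808 scaled reads at predeviation and at 8306, 28044, 3187 and 2219.6 at impending ovulation. The late libraries all lay above the early ones, but their spread was wide, and the change of 3.83 ± 2.05 did not pass (limma adjusted p = 0.295). MiR-129a-5p stood at 14.7, 19.6, 27.5 and 76.1 against 626, 1225, 114 and 149, also without overlap (3.55 ± 1.47, adjusted p = 0.165). In both, the highest value was that of impending ovulation 2, as it was for miR-206. MiR-7 and miR-218 went against this, with changes of -0.15 ± 1.12 and -0.14 ± 1.55 (adjusted p = 0.963 and 0.975) whose sign turned with equal totals, edgeR and DESeq2. The highest values of both at impending ovulation, 33479.5 and 5447, were in impending ovulation 3. MiR-204b, which belongs to no list, stood at 177, 186, 55.0 and 152 against 731, 1795, 457 and 372, without overlap and with impending ovulation 2 highest again (2.40 ± 0.76, adjusted p = 0.0555).

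Several miRNA families held no call. The 5 members of the miR-34 and miR-449 family, which marks multiciliated epithelia, all had negative changes, beside 142 of all 216 members. Their median was -3.15, beside -0.47 over all members. MiR-34c stood at 1445, 8303, 989.6 and 476 against 283, 0, 165 and 1816 (-4.00 ± 1.74, limma adjusted p = 0.184), and miR-34b-3p at 236, 333, 82.5 and 38.1 against 119, 57.0, 0 and 63.7 (-2.29 ± 1.77, adjusted p = 0.498). Impending ovulation 4 held more miR-34c than 3 of the early libraries, so the groups overlapped. The 5 members of the epithelial miR-200 family had a median of -0.56, close to the -0.47 over all members. MiR-200b stood at 2978, 4044, 1814 and 3902 against 1745, 2308, 1981 and 3951 (-0.36 ± 0.50, adjusted p = 0.704; positive with equal totals), and miR-200a had a change of -0.92 ± 0.57 (0.381). In the miR-183 cluster of 3 members, with a median of 0.25, miR-183 stood at 1931, 1351, 385 and 1256 against 1342, 2280.0, 2146 and 2092 (0.86 ± 0.47, adjusted p = 0.308), and miR-182 had a change of 0.25 ± 0.59 (0.852), negative with array weights.

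The let-7 family, which restrains growth genes and is high in differentiated cells, had 7 members and a median of 0.13. Let-7c, made together with miR-99a from the same host transcript in human, stood at 18649, 14638, 12479.8 and 39024 against 15241, 13509, 12988 and 8528 (-0.64 ± 0.33, limma adjusted p = 0.279). Let-7g had a change of -0.28 ± 0.34 (0.679), positive with equal totals. The 6 members of the miR-15, miR-16, miR-103 and miR-107 families had a median of -0.37, with miR-16 at -1.07 ± 0.74 (0.444) and miR-107a at -0.16 ± 0.69 (0.934; positive with equal totals, edgeR and DESeq2). The 6 members of the X-linked miR-424, miR-503 and miR-450 cluster had a median of -1.37, with miR-542-3p at -2.64 ± 1.71 (0.397) and miR-450b-5p at -0.93 ± 1.33 (0.705). The miR-29 family (2 members, median -0.29), the miR-30 family (4 members, 0.054), the miR-181 family (2 members, 0.22) and miR-26a (-0.24 ± 0.37, adjusted p = 0.733) held no call.

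**Figure D3:**
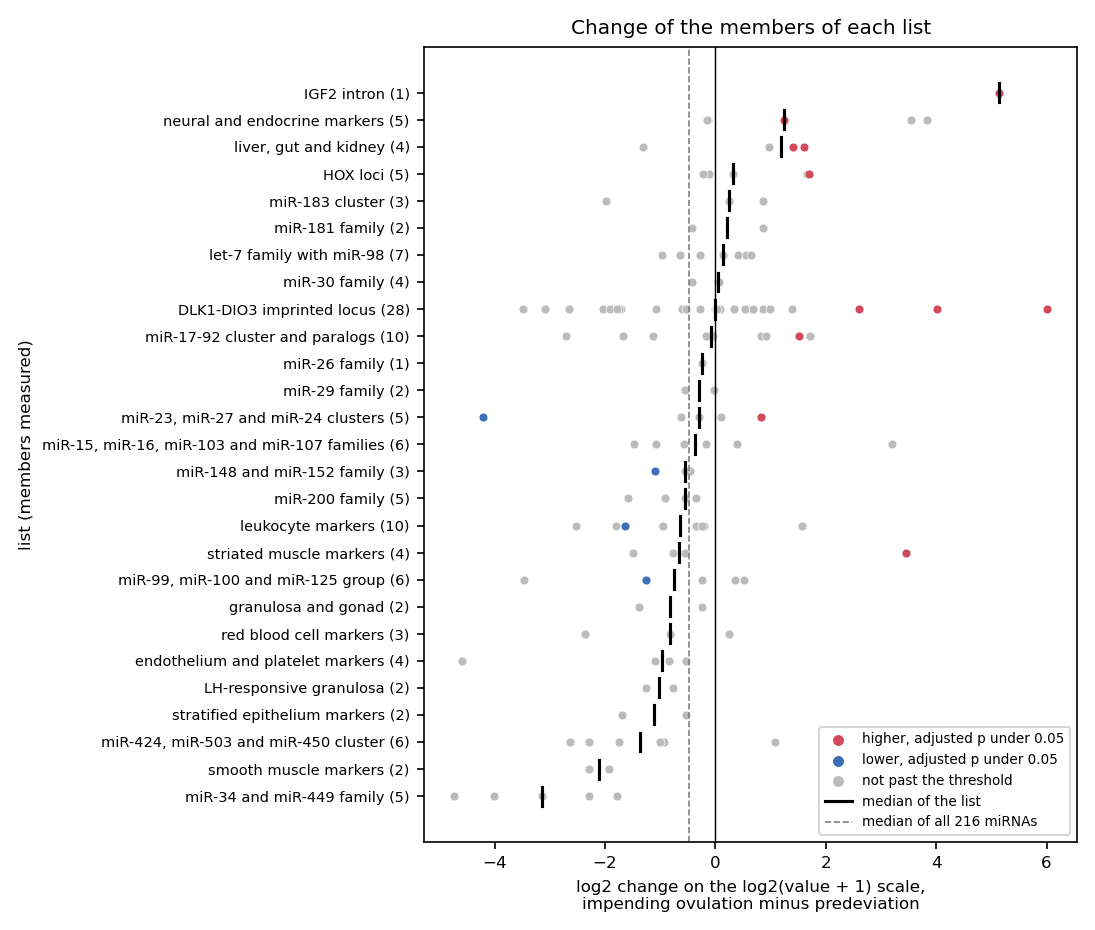
Fitted log2 change (impending ovulation minus predeviation, horizontal axis) of the members of the 27 miRNA lists, a row for each list, with a point for each member and a black bar at the list's median. Called members are coloured, and the dashed line is the median of the 216 members at -0.47. Most lists straddle the line, and the called members are spread over several lists.

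The most abundant miRNAs took a smaller share of the vesicle cargo at impending ovulation in these libraries. The 10 most abundant miRNAs of each library held 75.4, 75.4, 79.2 and 80.5% of the values at predeviation, a mean of 77.6% ± 2.62 (SD, n = 4), and 66.4% ± 2.35 at impending ovulation, where the range was 63.1 to 68.2%. All 4 late libraries lay below all early ones. The difference of -11.2 percentage points had an exact two-sided permutation p of 0.0286, the smallest that 70 arrangements can give, and an adjusted p of 0.0571 over the 2 library measures tested by permutation. The 4 called lower miRNAs held 31.1 to 51.7% of the values at predeviation and 19.9 to 26.3% at impending ovulation, most of it miR-148a. The 13 called higher miRNAs held 3.44 to 6.65% at predeviation and 16.1 to 23.0% at impending ovulation. These shares describe miRNAs that the same values had selected.

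**Figure D4:**
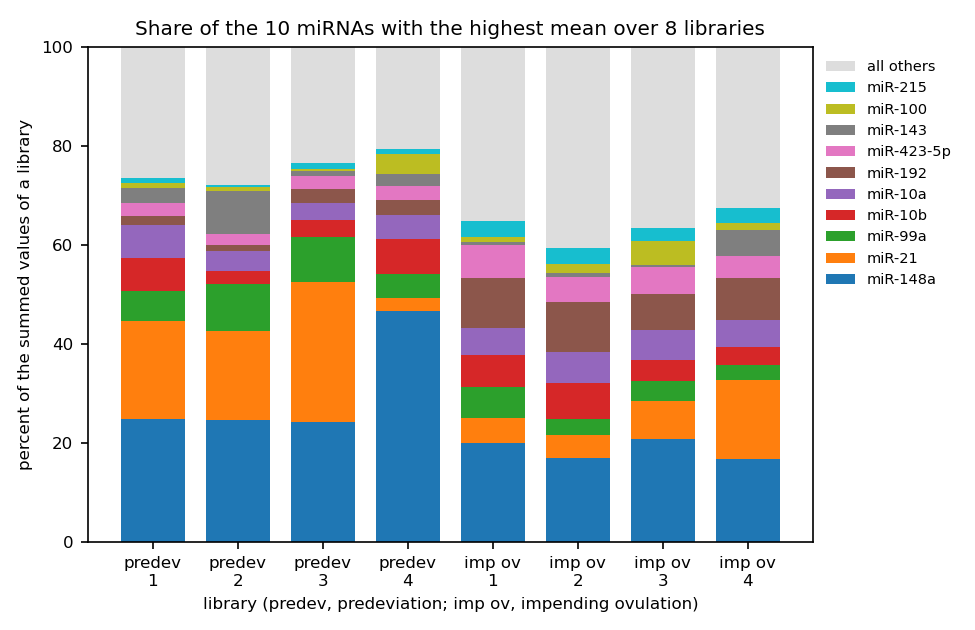
Share of all scaled reads (percent, vertical axis) held by the 10 miRNAs with the highest mean over the 8 libraries, as a stacked bar for each library, with all other miRNAs in pale grey. MiR-148a holds 24.3 to 46.6% at predeviation and 16.7 to 20.8% at impending ovulation, and miR-192 is wider in all 4 impending ovulation libraries.

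Some abundant miRNAs were measured well enough to bound their change on the deposited scale. For 12 members the 95% interval of the log2 change lay within 1 in either direction: miR-10a, let-7g, miR-24, let-7f, miR-378, miR-30d, miR-25, miR-146a, miR-191a, miR-423-3p, miR-30c and miR-1839. The interval of miR-24 ran from -0.39 to 0.60 and that of miR-423-3p from -0.55 to 0.67. These intervals do not cover the choice of scaling. Bringing every library to the same total moved the fitted changes of all members up by a median of 0.44, so the bounds hold for the deposited scale only. The other arm of the miR-423 hairpin, miR-423-5p, was among the 10 most abundant and stood at 26579.8, 24919, 29880.1 and 52255 against 56699, 43548, 53895 and 42118 (0.61 ± 0.26, limma adjusted p = 0.184). Precision was lower elsewhere, with a median half-width of the interval of 0.95 for the 72 most abundant members, 1.85 for the 72 in the middle and 3.56 for the 72 least abundant.

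The levels of the called miRNAs in the stages between are given as a description. These stages are deviation (22 to 25 mm), postdeviation (26 to 29 mm) and preovulatory (30 to 35 mm), and their values are set against the same predeviation libraries with no test. The called miRNAs had been chosen on those predeviation libraries, so their distance from them at other stages is in part fixed by that choice. MiR-92a had medians of 2777, 4648, 6621, 7595 and 8686 scaled reads from predeviation to impending ovulation, with every library from deviation on above the predeviation range. MiR-192 and miR-215 had their highest medians at postdeviation (94425 and 37784) and lower ones at preovulatory (48800.1 and 20299) than at impending ovulation (81918 and 27558). MiR-758 had medians of 0 at predeviation and deviation, 7.20 at postdeviation, 53.8 at preovulatory and 88.6 at impending ovulation, and was above 0 in every library at impending ovulation alone.

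Among the miRNAs called lower, miR-146b-5p had medians of 3013, 1384, 1084, 884 and 870.3 scaled reads over the 5 stages. MiR-23b had a preovulatory median of 239.7, as high as the 233 at predeviation, before 26.5 at impending ovulation. MiR-148a had medians of 272806, 254050.1, 182579.5, 142672 and 162443.

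**Figure D5:**
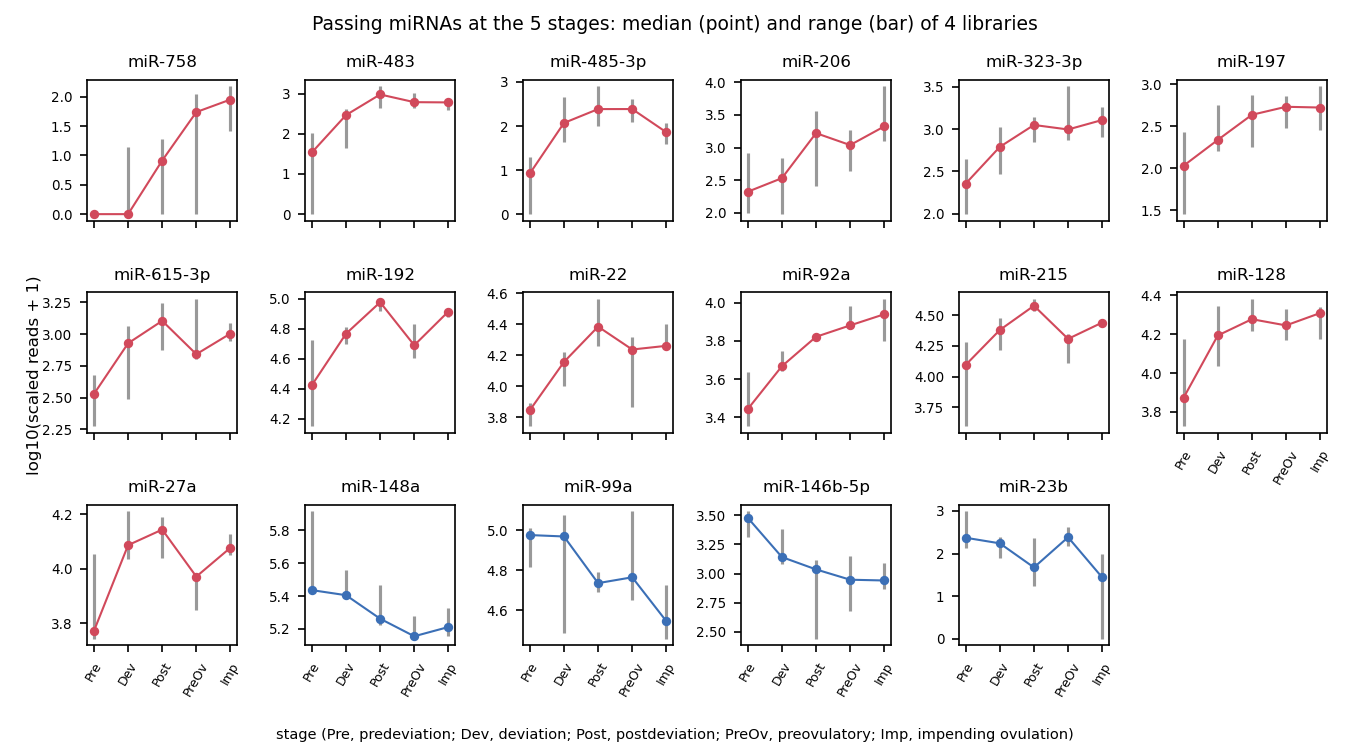
Levels of the 17 called miRNAs at the 5 stages as log10(scaled reads + 1), with a panel and a scale of its own for each miRNA, a point at the median and a bar from the lowest to the highest of 4 libraries. Red marks miRNAs called higher and blue those called lower at impending ovulation. The medians of miR-92a rise at each stage, and miR-192 and miR-215 peak at postdeviation.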

How the data were processed

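Small RNA of follicular fluid vesicles was sequenced in 20 libraries, and the 8 libraries of impending ovulation and predeviation were compared. Per the labels' protocols, vesicles were pelleted at 120000 x g for 70 min from 2 ml of fluid, and libraries were made with a TruSeq Small RNA kit. Per the submitters' processing notes, bcl2fastq, Bowtie2 2.2.2, DESeq2 and the build EquCab3.0 were used, with no role or order given. Neither the miRNA annotation nor how reads were counted is stated in these sources.

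The authors named the deposited values CPM, but they behave as a scaled signal of reads: 100% of the values above 0 were whole multiples, within 1e-06, of the smallest value above 0 in the library, worth 9.79 to 28.5 in these 8 libraries. Sums differ between libraries, as they would not for CPM on plain totals, and the sources do not say how the authors set the factors. The test had been planned for CPM and was kept for this signal. Dividing by the smallest value gave whole reads for the alternatives. For postdeviation 2, too few low values allowed the check of this recovery, so count models ran on 19 libraries. Reads carry no molecular identifiers, so counting intervals (95%) and the floor (3 reads per group) include no error beyond counting.

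Log2(value + 1) was fitted in R 4.3.3 by limma 3.58.1 with trend on all 20 libraries, with a mean per stage (15 residual degrees of freedom) and the contrast of impending ovulation minus predeviation. P-values are two-sided and adjusted by Benjamini-Hochberg over the 216 members, and called under 0.05. The same log2 scale underlies all fold changes, and for scarce miRNAs the pseudocount weighs on their size. The share of the 10 most abundant miRNAs and the number detected at equal depth were compared by exact permutation tests. Alternatives were other pseudocounts, filters, scalings and libraries, edgeR 4.0.16 and DESeq2 1.42.0 on recovered reads, and leaving out each library. Members of lists were found by miRNA name, whatever the arm, and lists were described without a test. Sequences and coordinates were not used here, and a miRNA's role is background.

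The members, the lists and the rule for named miRNAs were chosen with earlier results of these data known. Named were all called miRNAs and their other arms, the 10 most abundant, those with a mean of at least 100 scaled reads that were not called but whose groups did not overlap, those at 0 in 1 stage only, and of each of the 27 lists up to 4 members, or 2 for a list without a call. The 12 miRNAs with narrow intervals and the ratios of pairs were chosen after their values were seen.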

Additional observations from a re-analysis of the deposited data

Results flagged for a closer look

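In 10 of 168 groups of 4 libraries examined, 1 library lay far from the other 3 of its group on the log2(value + 1) scale (for the library sum, on the plain scale); chance alone flags about 1 group in 20. Predeviation 4 held 828709 scaled reads of miR-148a and summed to 1778180 scaled reads in all. Predeviation 3 was high for miR-27a (11380.3), low for miR-7 (2282) and miR-204b (55.0), and at 0 for miR-146b-3p. Impending ovulation 4 was high for miR-145 (1094) and was the only library of its stage above 0 for miR-146b-3p (10.6, which is 1 read). Impending ovulation 3 was at 0 for miR-34b-3p. Impending ovulation 1 was low for miR-183 (1342). Of the called miRNAs, miR-148a and miR-27a are among these; their values without the library concerned are given with their results. What set these libraries apart was not tested.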

How the results depend on the processing

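Precision limits most of the table: 95% intervals of a log2 change reached a median of 2.12 to each side, and a change of scarce miRNAs was not detectable at this depth unless it was very large. Leaving out 1 library at a time gave 5 to 22 calls. Calls numbered 6 with only the 8 libraries in limma, 0 with edgeR on the deposited scale and only these libraries (an alternative added after seeing the data; 34 at an unadjusted p under 0.05) and 7, all higher, without the 2 libraries under 40000 reads. The other alternatives gave 13 (without the intensity trend) to 25 (DESeq2, 17 higher and 8 lower). The difference in the share of the 10 most abundant miRNAs ranged from -12.0 to -10.1 percentage points when a library was left out, with an exact permutation p of 0.0571, the smallest that design allows. Same-numbered libraries did not deviate together (Pearson r across miRNAs -0.15, -0.19, 0.0033 and -0.33), and no library correlated best with its own number. These values gave no sign of pairing by replicate number, but 4 libraries per group cannot show that no samples share a mare. A fit with the replicate number as a block gave 14 calls (12 higher, 2 lower).

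Besides miR-148a, no called miRNA changed sign under any alternative. With quantile normalization the sign turned for miR-132 (0.26), miR-148a (0.22), miR-24 (-0.16), miR-29b (0.83), miR-30d (-0.42), miR-31 (0.065) and miR-486-5p (-0.11). With a median of ratios it turned for miR-25 (0.042) and miR-29b (0.027). With equal library totals it turned for let-7g (0.17), miR-107a (0.28), miR-10a (0.32), miR-10b (0.22), miR-146a (0.099), miR-181a (0.023), miR-200b (0.089), miR-218 (0.31), miR-25 (0.40), miR-26a (0.21), miR-29b (0.31), miR-30e (0.025), miR-378 (0.20), miR-7 (0.30) and miR-93 (0.28). With array weights the changes of opposite sign were miR-148b-5p (0.56), miR-182 (-0.16), miR-218 (0.72), miR-25 (0.17), miR-29b (0.56), miR-30d (-0.033) and miR-31 (0.12). With edgeR and TMM on recovered reads they were miR-1 (0.20), miR-100 (-0.054), miR-107a (0.026), miR-132 (0.72), miR-218 (0.80), miR-224 (0.35), miR-409-3p (-0.38), miR-7 (0.71) and miR-93 (0.070). With edgeR on the deposited scale they were miR-1 (0.099), miR-100 (-0.15), miR-107a (0.027), miR-132 (0.71), miR-218 (0.69), miR-224 (0.35), miR-409-3p (-0.44), miR-7 (0.67) and miR-93 (0.060). With DESeq2 they were miR-1 (0.16), miR-100 (-0.041), miR-107a (0.020), miR-132 (0.75), miR-218 (0.74), miR-224 (0.35), miR-409-3p (-0.30), miR-7 (0.66) and miR-93 (0.063). Without the 2 libraries under 40000 reads (preovulatory 3 and impending ovulation 2) they were miR-132 (0.93), miR-148b-5p (0.15), miR-224 (0.14), miR-29b (1.49), miR-409-3p (-0.018) and miR-7 (0.29). The cause was not tested for any of these.

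Leaving out 1 library at a time turned the sign in at least 1 case for miRNAs that had not been called, with ranges of -0.95 to 0.62 for miR-7, -0.50 to 0.29 for miR-93, -0.50 to 0.36 for miR-107a, -1.57 to 1.49 for miR-29b, -0.40 to 0.74 for miR-409-3p, -0.10 to 0.53 for miR-486-5p, -0.19 to 1.17 for miR-100, -1.49 to 0.51 for miR-148b-5p, -1.54 to 0.12 for miR-1, -0.30 to 0.069 for miR-10a, -0.58 to 0.17 for miR-10b, -0.16 to 0.71 for miR-182, -1.29 to 0.71 for miR-218, -0.30 to 0.36 for miR-25, -0.19 to 0.23 for miR-30d, -1.24 to 0.45 for miR-31, -0.47 to 0.0076 for let-7g, -1.79 to 0.93 for miR-132 and -2.33 to 0.14 for miR-224.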

Other observations

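Ratios of 2 miRNAs within a library do not depend on the factor that scales the library. The pairs here were chosen after their values had been seen, so the ratios are given as values with no test. MiR-192 over miR-148a was 0.0763, 0.0530, 0.117 and 0.0634 in predeviation libraries 1 to 4 and 0.504, 0.602, 0.355 and 0.504 in impending ovulation libraries 1 to 4. MiR-27a over miR-27b was 0.337, 0.377, 0.502 and 0.369 at predeviation and 1.07, 1.42, 0.965 and 0.912 at impending ovulation. The value of miR-27a in predeviation 3, which lay among the impending ovulation libraries by level, lay below all of them as this ratio. MiR-192 over miR-215, which share a seed, was 1.92, 3.58, 2.28 and 2.74 at predeviation and 3.16, 3.08, 2.68 and 2.90 at impending ovulation, with overlapping groups. MiR-21 over miR-192 was 10.5, 13.8, 9.93 and 0.891 at predeviation and 0.502, 0.459, 1.02 and 1.90 at impending ovulation, where predeviation 4 fell among the late libraries.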
